A study of Homo sapiens with 5 samples.

Results

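Transcript levels of H1 human embryonic stem cells given BMP4 for 2 days were compared with those of H1 cells left in E8 medium for 2 days, with 1 array for each condition. E8 is a defined medium that keeps human embryonic stem cells undifferentiated, and the series title asks how added pyruvate bears on mesoderm differentiation. Both cultures grew on Matrigel in E8, and the treated one differed by added BMP4, with no added pyruvate on either side. The other 3 arrays of the series held cells in E8 with 16 mM pyruvate for 2 days, cells given BMP4 and pyruvate together for 2 days, and cells given both for 6 days, always with pyruvate at 16 mM. All cells were of 1 line, the labels state neither the BMP4 dose nor the density of each culture, and 1 array a side leaves no measure of the spread between cultures. Every difference below is therefore a description of 2 arrays, with no test and no p-value.

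The comparison took in each gene with at least 1 named probe detected on either array, at a detection p-value under 0.01. These were 11582 of the 20041 genes with a named probe. Levels are the normalized log2 signal of 1 probe per gene, so a level can be set against the same probe on another array but not against another gene's probe. A gene is called higher or lower with BMP4 where the log2 difference reached 1, which is 2-fold, and that probe was detected on the brighter array. For a gene with no detected probe on the dimmer array the fold is given as a bound ("at least"), which divides the bright value by the dim probe's own value or, if larger, by the lowest value among the detected probes of that array. Such a bound is a minimum only under the main processing. Over the alternatives of processing listed below, the log2 difference of TFAP2A ran from 4.31 to 6.95, against a bound of 5.88. That of MSX2 ran from 2.07 to 3.99, against a bound of 3.63. The arrays read bulk RNA, in which fewer cells of a type and less RNA per cell cannot be told apart.

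BMP4 is a secreted ligand of the TGF-beta family that binds type I and type II receptor kinases, which phosphorylate SMAD1, SMAD5 and SMAD9. These join SMAD4 in the nucleus and switch on direct targets, among them the ID genes and inhibitors that feed back on the pathway. In the early embryo BMP signals are known for their part in setting apart extraembryonic tissue and in starting the primitive streak and the mesoderm, and for holding back neural fates.

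With BMP4, 310 genes were higher (2.68% of those compared), 291 were lower (2.51%), and 10981 were neither, so that 601 genes (5.19%) passed the size rule. The higher side reached further. In all, 57 genes were higher by 2 or more in log2 against 22 lower, and 19 were higher by 3 or more against 1 lower. Most of both sides were protein-coding genes, 293 of the higher and 276 of the lower. The BMP4 array detected fewer probes, 16779 or 35.5% of 47296, against 18982 or 40.1% on the E8 array. Of the genes compared, 1166 were detected on the E8 array alone and 238 on the BMP4 array alone, and these held 160 of the lower and 118 of the higher calls. Of these calls on 1 array, the bound reached 2-fold for 49 of the 118 higher and 30 of the 160 lower genes, and for 23 of the lower ones no bound above 1-fold could be set. A difference of 2-fold or more, measured on both arrays or as a bound, was thus held by 241 of the 310 and 161 of the 291 genes. The part of this gap in the lower calls was not tested. Scaling each array to its 75th percentile in place of quantile normalization gave 364 higher and 180 lower, or 66.9% of calls higher instead of 51.6%.

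**Figure D1:**
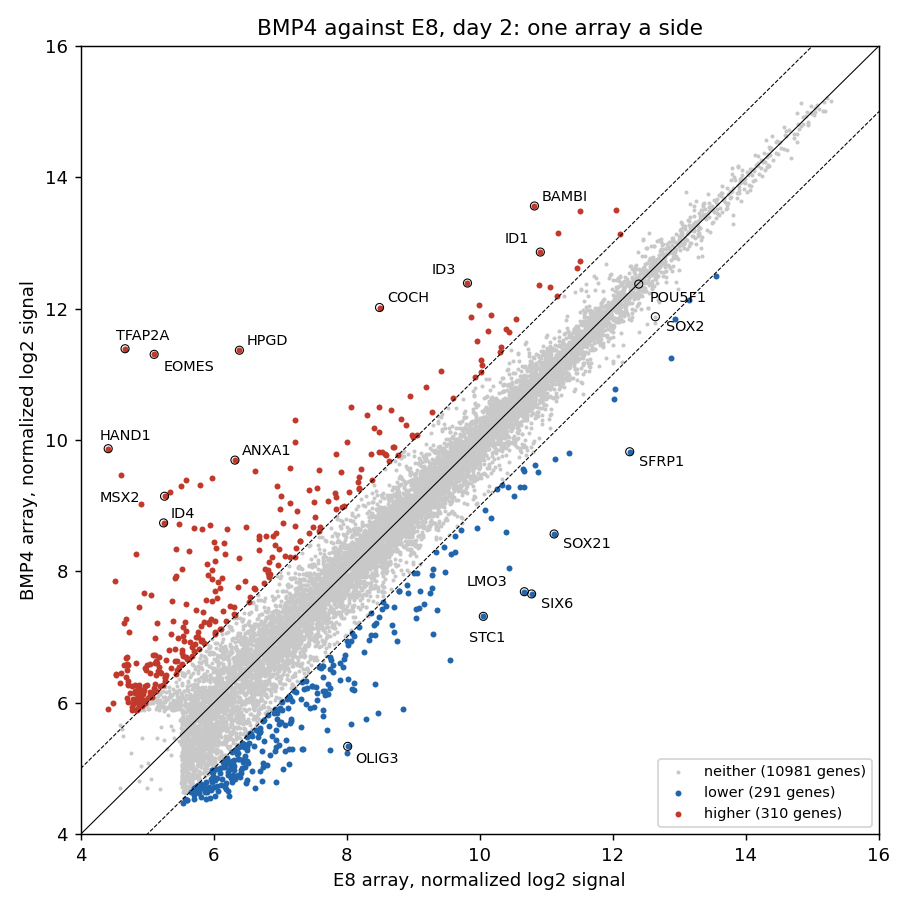
Normalized log2 signal of the 11582 genes on the E8 array (horizontal axis) and the BMP4 array (vertical axis), 1 point per gene and 1 array a side. Dashed lines mark a log2 difference of 1 in either direction; red points are the 310 higher and blue points the 291 lower genes, and named genes are ringed. TFAP2A, EOMES and HAND1 sit farthest above the diagonal and SIX6 farthest below it, while POU5F1 lies on it.

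Defining markers were set against the label of the cells. All 8 markers of pluripotent stem cells (POU5F1, NANOG, SOX2, LIN28A, DNMT3B, CRIPTO, DPPA4 and ZFP42) were detected on both arrays, and none was higher or lower. The 3 primitive streak markers TBXT, MIXL1 and EOMES went from undetected to detected. Of 4 lateral mesoderm markers HAND1 alone was detected, and only with BMP4. Of 7 amnion or trophoblast markers GABRP was detected in E8, and TFAP2A, GATA2 and GABRP with BMP4. No marker of neuroectoderm (PAX6, SOX1, LHX2), endoderm (SOX17, FOXA2) or endothelium (CDH5, PECAM1, TEK) was detected on either array. Of 5 fibroblast markers COL1A1 and COL1A2 were detected on both arrays, with differences of -0.37 and 0.55.

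Some known direct targets of BMP signalling were higher. The list of ID proteins and SMAD feedback genes had 14 members in the comparison, of which 6 were higher and 0 lower, with 8 neither. Their median difference was 0.90, against -0.01 over all genes compared. The counts of this and every later list are to be read beside 2.68% higher and 2.51% lower among all genes compared. A member enters a list's count and median here only if it was detected on either array, so a gene may enter through the array on which it is high. The median over all members with a probe, with no detection filter, is given too where it lay over 1.5 times away. This was done for every stated median of at least 0.2 in size, and for smaller ones it may be left out. Here the median with no detection filter was 0.30 over 22. ID proteins bind basic helix-loop-helix transcription factors and keep them off DNA. ID1 was at 10.91 in E8 and 12.86 with BMP4, 3.87-fold higher, and a second probe differed by 2.12. ID3 went from 9.81 to 12.39, 5.96-fold higher. ID2 went from 10.44 to 11.64, 2.30-fold higher, with a second probe at 1.40. ID4 was undetected in E8 and at 8.74 with BMP4, at least 9.35-fold higher, so all 4 members of the family passed the size rule.

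The promoters of 3 of these genes and of MSX2, another known BMP target, are shown because these are the genes through which BMP signalling is usually read. The windows run from 250 bases before to 50 after the RefSeq start (GRCh38.p14), and capitals mark TATAAA, the core of a TATA box.

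ID1, chr20:31605039-31605338, plus strand: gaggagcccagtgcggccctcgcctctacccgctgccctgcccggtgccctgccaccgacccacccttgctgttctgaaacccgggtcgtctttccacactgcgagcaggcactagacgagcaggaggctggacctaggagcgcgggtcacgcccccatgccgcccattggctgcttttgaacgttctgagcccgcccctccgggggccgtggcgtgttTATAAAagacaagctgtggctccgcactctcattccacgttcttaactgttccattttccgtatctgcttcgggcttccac
ID2, chr2:8681806-8682105, plus strand: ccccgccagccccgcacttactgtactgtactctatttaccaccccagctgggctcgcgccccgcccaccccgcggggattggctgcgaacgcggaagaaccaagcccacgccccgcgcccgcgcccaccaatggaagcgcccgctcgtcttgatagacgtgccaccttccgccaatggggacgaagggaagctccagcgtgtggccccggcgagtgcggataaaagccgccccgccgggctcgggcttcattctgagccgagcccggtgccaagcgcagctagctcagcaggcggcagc
ID3, chr1:23559452-23559751, minus strand: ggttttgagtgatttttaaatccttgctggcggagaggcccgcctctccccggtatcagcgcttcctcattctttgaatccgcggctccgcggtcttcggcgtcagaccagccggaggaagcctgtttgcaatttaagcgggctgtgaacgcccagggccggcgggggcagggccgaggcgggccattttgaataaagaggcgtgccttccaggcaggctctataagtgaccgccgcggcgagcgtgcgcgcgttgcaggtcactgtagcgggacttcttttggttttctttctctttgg
MSX2, chr5:174724332-174724631, plus strand: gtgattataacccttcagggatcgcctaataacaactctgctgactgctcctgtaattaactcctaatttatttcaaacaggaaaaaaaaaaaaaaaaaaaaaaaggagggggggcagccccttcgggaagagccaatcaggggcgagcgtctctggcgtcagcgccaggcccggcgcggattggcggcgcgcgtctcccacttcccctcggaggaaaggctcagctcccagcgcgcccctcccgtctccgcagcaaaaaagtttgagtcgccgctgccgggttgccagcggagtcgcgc

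In the ID1 window TATAAA begins 31 bases before the start, at position -31, and it is the only match in the 4 windows. GGCGCC, a GC-rich element that SMAD1 and SMAD5 can bind, and CAGACA, which holds the SMAD box, were searched on both strands, and neither occurs in the 4 windows. This says only that these letters are not within these 300 bases. The CpG content of the 4 windows, observed over expected, ran from 0.766 in ID1 to 1.02 in ID3.

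Of the inhibitors that feed back on the pathway, BAMBI and SMAD6 were higher and the others compared were neither. BAMBI, a decoy receptor without a kinase domain, was at 10.82 in E8 and 13.56 with BMP4, 6.69-fold higher. SMAD6, which competes with the receptor-activated SMADs, went from 8.31 to 10.38, 4.21-fold higher. SMAD7, the other inhibitory SMAD, differed by 0.94 and so stayed just short of the size rule, as did PMEPA1, a membrane inhibitor of SMAD signalling, at 0.87 (second probe 1.11). The follistatin-like protein FSTL1 differed by 0.68, the ubiquitin ligase SMURF1 by 0.29, the antagonist GREM1 by 0.29, and FST, which traps activin, by 0.20. SKIL, a repressor of SMAD-driven transcription, differed by -0.39. SMAD9 gave a split reading, -0.14 by its brighter probe and 1.35 by the second. The antagonists NOG, CHRD, CHRDL1 and BMPER were undetected on both arrays. The 6 calls of this list were the same in number without background correction.

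Of 21 ligands, receptors and SMADs of the BMP and activin branches, which carry the signal itself, 1 was higher and 0 were lower. This share, 4.76%, was close to the 5.19% of all genes compared that passed the size rule, and the list had a median of -0.03 (0.01 under 75th percentile scaling). The 1 higher member was GDF15, a stress-induced ligand, at 6.33 in E8 and 7.34 with BMP4, a call lost in 4 of the alternatives tried. Among the type I and II receptors, ACVR1 differed by 0.87, BMPR2 by 0.76, ACVR1B by 0.30, ACVR2A by -0.12 and ACVR2B by -0.22. SMAD4, the common partner, differed by 0.07 and SMAD5 by 0.05. The transcript of BMP4 itself was undetected on both arrays, and BMP2 was detected only in E8 and was neither (-0.98). RGMA, a BMP co-receptor, differed by -0.77, and CRIPTO, the co-receptor of NODAL, by -0.96.

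Transcription factors that were undetected in E8 gave the largest differences. TFAP2A, an AP-2 factor of surface ectoderm, amnion and trophoblast, was at 11.39 with BMP4, at least 58.7-fold higher, and its second probe differed by 4.87. MSX2, a homeobox factor and known BMP target, was at 9.15, at least 12.4-fold higher. DLX5, a homeobox factor of limb, placode and extraembryonic tissue, was at 7.86, at least 5.07-fold higher. These 3 genes were not well above background on the E8 array. In the list of MSX and DLX genes 2 of 5 were higher and 0 lower. The 5 are those detected of 8 with a probe, and the 2 higher ones entered only through the BMP4 array. MSX1, the 1 member detected on both arrays, differed by 0.39 and was neither. GATA2, of trophoblast and blood, was at least 2.27-fold higher at 6.70, and GATA5 went from 7.43 to 8.59. TBX3, a T-box factor, was higher by 1.24, but its second probe differed by 0.71. TFAP2C, already at 10.66 in E8, differed by 0.45, and GATA3, GATA4 and GATA6 were undetected on both arrays. In the list of GATA, TFAP2 and TBX factors 4 of 6 were higher and 0 lower, and without background correction only TFAP2A passed. The 6 are those detected of 19 with a probe, TFAP2A and GATA2 only with BMP4. Their median was 1.20, and 0.15 over the 19 with no detection filter.

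**Figure D2:**
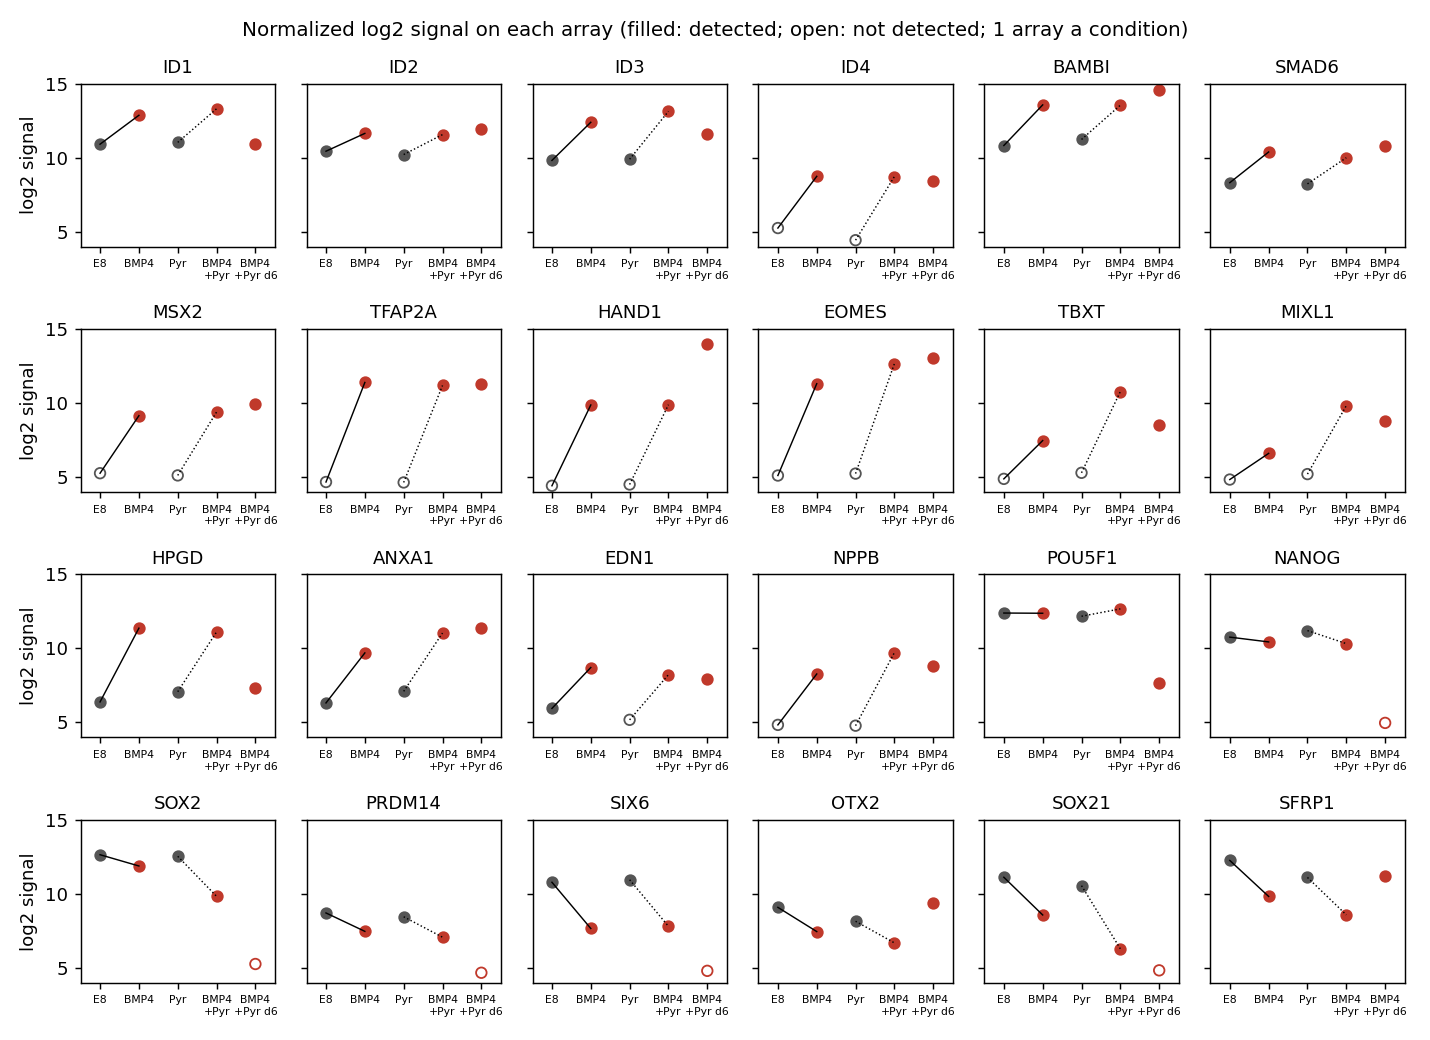
Normalized log2 signal of 24 genes on all 5 arrays, 1 array a condition, with filled points for detected and open points for undetected probes; the genes were chosen for display after their values were seen. Solid lines join E8 and BMP4, dotted lines join pyruvate and BMP4 with pyruvate at day 2, and the last point is BMP4 with pyruvate at day 6. TFAP2A goes from 4.67 to 11.39 along the solid line, and POU5F1 from 12.39 to 12.37.

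Amnion and trophoblast are extraembryonic layers that BMP4 can induce from human embryonic stem cells. Of 17 of their genes compared, 7 were higher and 3 lower, leaving 7 neither, and the median was 0.77, or 0.45 over 35 with no detection filter. TFAP2A, MSX2, DLX5 and GATA2 count here too, and like HAND1 they entered only through the BMP4 array. Over the 10 members detected on both arrays, 2 were higher and 2 lower. HAND1, a factor of trophoblast and lateral mesoderm, went from undetected to 9.87, at least 20.5-fold higher. HPGD, the enzyme that inactivates prostaglandins and is abundant in placenta, went from 6.39 to 11.37. At 31.6-fold this was the largest difference of any gene detected on both arrays. HAPLN1, which links hyaluronan to proteoglycans, was 3.87-fold higher, with a second probe at 2.10. The lower members were GABRP, a GABA receptor subunit used as an amnion marker (8.08 to 6.21), the growth factor binding protein IGFBP5 (8.42 to 7.19, second probe -1.36) and the hypoxia factor EPAS1 (6.50, then undetected, at least 1.53-fold). Without background correction none of these 3 was lower. The keratins KRT8 and KRT19 differed by 0.77 and 0.79, the only 2 of 10 simple epithelial keratins detected. KRT7, KRT18, CDX2, ISL1, VTCN1, the hormone genes CGA and CGB5, and ELF5 were undetected on both arrays.

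The primitive streak is where cells of the early embryo become mesoderm and endoderm. Of its genes, EOMES, a T-box factor, was undetected in E8 and at 11.30 with BMP4, at least 55.4-fold higher. TBXT, the T-box factor that defines the streak, was at 7.46, at least 3.86-fold higher. MIXL1 was at 6.60, at least 2.12-fold higher, and lost its call without background correction. WNT3, the ligand that starts the streak, was detected on both arrays and went from 5.64 to 8.31, 6.40-fold higher. On the other side CYP26A1, which degrades retinoic acid, went from 9.03 to 7.29, 3.35-fold lower, with a second probe at -1.26. NODAL differed by 0.71, FGF8 by 0.09, WNT5B by -0.25 and MESP1 by -0.55. Thus 4 of 10 were higher and 1 lower. The median was 0.40 and became -0.08 over the 6 members detected on both arrays and -0.03 over 23 with no detection filter. Of those 6, 1 was higher and 1 lower. GSC, SP5, LHX1, TBX6 and MSGN1 were among the members undetected on both, since 10 of 23 entered the comparison.

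Of the NODAL targets and inhibitors, 1 of 8 was higher and 0 lower, with a median of 0.24. CER1, a secreted inhibitor of NODAL, BMP and WNT, was undetected in E8 and at 6.66 with BMP4, at least 2.21-fold higher, though not without background correction. LEFTY1 and LEFTY2, which NODAL induces and which inhibit it, differed by 0.45 and 0.27. The only endoderm gene past the rule was also CER1, 1 of 7, with HHEX at -0.76 and SOX17, FOXA2 and CXCR4 undetected on both arrays.

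Among 10 genes of lateral and cardiac mesoderm, 5 were higher and none was lower. The median was 0.75, but 0.13 over the 27 members with a probe with no detection filter. Besides HAND1, PDGFRB, a receptor of mesenchyme, went from 5.53 to 8.03, 5.67-fold higher. HEY1, a repressor downstream of NOTCH and BMP, was 4.40-fold higher, from 7.01 to 9.15. KDR, the VEGF receptor of early mesoderm, went from 7.84 to 8.95, 2.15-fold higher. GATA5 was the fifth. Without background correction KDR and GATA5 were no longer higher, while HAND1, PDGFRB and HEY1 were. PDGFRA differed by -0.55 and HEY2 by -0.63. FOXF1, ISL1, NKX2-5, TBX5, TWIST1 and HAND2 were undetected on both arrays.

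Among later mesoderm derivatives, few genes of endothelium and blood were detected. Of 29 endothelial and blood genes with a probe, 8 entered the comparison, with KDR and SOX18 (6.76 to 7.82) higher, MYB, a factor of blood progenitors, lower (9.10 to 7.70) and 5 neither. Only MYB passed without background correction. CDH5, TAL1, ETV2, RUNX1 and CD34 were undetected on both arrays. In the list for cardiac and smooth muscle, 3 of 16 were higher and 1 was lower (median 0.22, or 0.09 over 28 with no detection filter). NPPB, a natriuretic peptide, was at 8.27 with BMP4, at least 6.77-fold higher. The actin ACTC1 was 3.64-fold higher (6.68 to 8.54), and the actin-binding protein TAGLN 2.92-fold (9.96 to 11.51, second probe 1.19). ACTA2 was lower, from 6.30 to undetected, at least 1.33-fold, a call lost without background correction, and TNNI3 differed by -0.88. MYH7, MYL7, DES and NPPA were undetected on both arrays. Of 23 HOX genes with a probe only HOXB5, HOXB6 and HOXD3 entered, and none was higher or lower.

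Of 36 pluripotency genes compared, 2 were higher and 7 lower, with 27 neither, and 30 of the 36 differences were below 0, with a median of -0.39. The core factors POU5F1 (12.39 in E8, 12.37 with BMP4), NANOG (10.76, 10.44) and SOX2 (12.64, 11.88) were neither. SOX2 had a second probe at -1.15. The lower genes were PRDM14, a repressor of differentiation (8.71 to 7.46, second probe -1.37), NR5A2, a nuclear receptor (9.96 to 8.67), and DPPA5, an RNA-binding protein that was undetected with BMP4 and at least 2.76-fold lower. TERF1, which binds telomeres, went from 12.93 to 11.85, and UTF1, LCK and KLF4 were lower with differences of -1.02, -1.04 and -1.02. KLF4 had a second probe at -0.26. The 2 higher members were the neuropeptide gene GAL, 3.96-fold (11.17 to 13.16), and TBX3. Without background correction NR5A2 and TERF1 were the lower genes, and GAL the higher one. Among 10 primordial germ cell genes NANOS3, an RNA-binding protein of germ cells, was higher (5.84 to 7.39), PRDM14 and UTF1 were lower, and PRDM1 and SOX17 were undetected on both arrays. None of these 3 germ cell calls held without background correction.

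Of 19 neuroectoderm genes none was higher, 7 were lower and 12 neither, and 18 of the 19 differences were below 0. The median was -0.69, but nearer to 0 at -0.48 over the 10 members detected on both arrays, -0.34 over 30 with no detection filter, -0.31 without background correction and -0.40 under 75th percentile scaling. SIX6, a homeobox factor of the eye field, was at 10.78 in E8 and 7.66 with BMP4. At 8.70-fold lower it was the largest difference on the lower side. SOX21, an HMG-box factor of neural progenitors, went from 11.12 to 8.57, 5.84-fold lower. OTX2, of the forebrain and the primed state, went from 9.08 to 7.45, 3.10-fold lower, with a second probe at -1.71. SOX3, also of neural progenitors, was lower with a difference of -1.38. OLIG3, a helix-loop-helix factor, was undetected with BMP4 and at least 4.38-fold lower, HESX1 at least 2.07-fold and POU3F1 at least 1.82-fold. Without background correction HESX1 and POU3F1 lost the call. ZIC2 differed by -0.51, SOX11 by -0.15 and SIX3 by -0.06. Of 10 neural crest and placode genes, TFAP2A and DLX5 were higher, SOX9 was lower (7.74 to 6.51, not without background correction) and 7 were neither. Among the 8 detected on both arrays none was higher.

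The WNT list had 3 higher and 3 lower members of 28 (median -0.22, or -0.03 over 47 with no detection filter). Higher were the ligand WNT3, the receptor FZD4 (8.72 to 9.90) and TNFRSF19, a WNT target (5.95 to 7.27). Lower were the secreted WNT antagonists SFRP1 (12.25 to 9.82, 5.39-fold) and FRZB (8.11 to 6.19, 3.77-fold) and the ligand WNT5A (7.90 to 6.35). AXIN2, a general target of beta-catenin signalling, differed by -0.85, LEF1 by 0.48 (second probe 1.35) and NKD1 by -0.72. SP5 and DKK1, further targets, were undetected on both arrays. Without background correction WNT3 was the 1 higher gene and SFRP1 and FRZB the 2 lower ones.

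In the FGF list 2 of 24 were higher (8.33%) and 3 lower (12.5%), against 2.68% and 2.51% of all genes compared. The median was -0.05 (0.07 under 75th percentile scaling). The membrane protein FLRT2 was 4.08-fold higher (5.92 to 7.94) and the receptor FGFR3 2.47-fold (10.39 to 11.69, second probe 1.11). The ligand FGF19 (9.30 to 8.04), the FGF-binding protein FGFBP3 (7.56 to 6.04) and the ETS factor ETV1 (6.81, then undetected, at least 1.90-fold) were lower. FGFR3 was the 1 call left without background correction. The feedback inhibitors SPRY1, SPRY2 and SPRY4 differed by -0.23, 0.25 and 0.05 and the phosphatase DUSP6 by -0.64. In the NOTCH list HEY1 and HES1 (8.63 to 9.68) were higher, the ligand DLL3 was 3.15-fold lower (9.16 to 7.50), and 14 of 17 were neither. HES1 was not higher without background correction. Of the 11 genes compared in the list of retinoic acid metabolism and receptors, CYP26A1 alone passed, on the lower side. LRAT, which acts on retinol and is not in that list, was 4.78-fold lower.

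**Figure D3:**
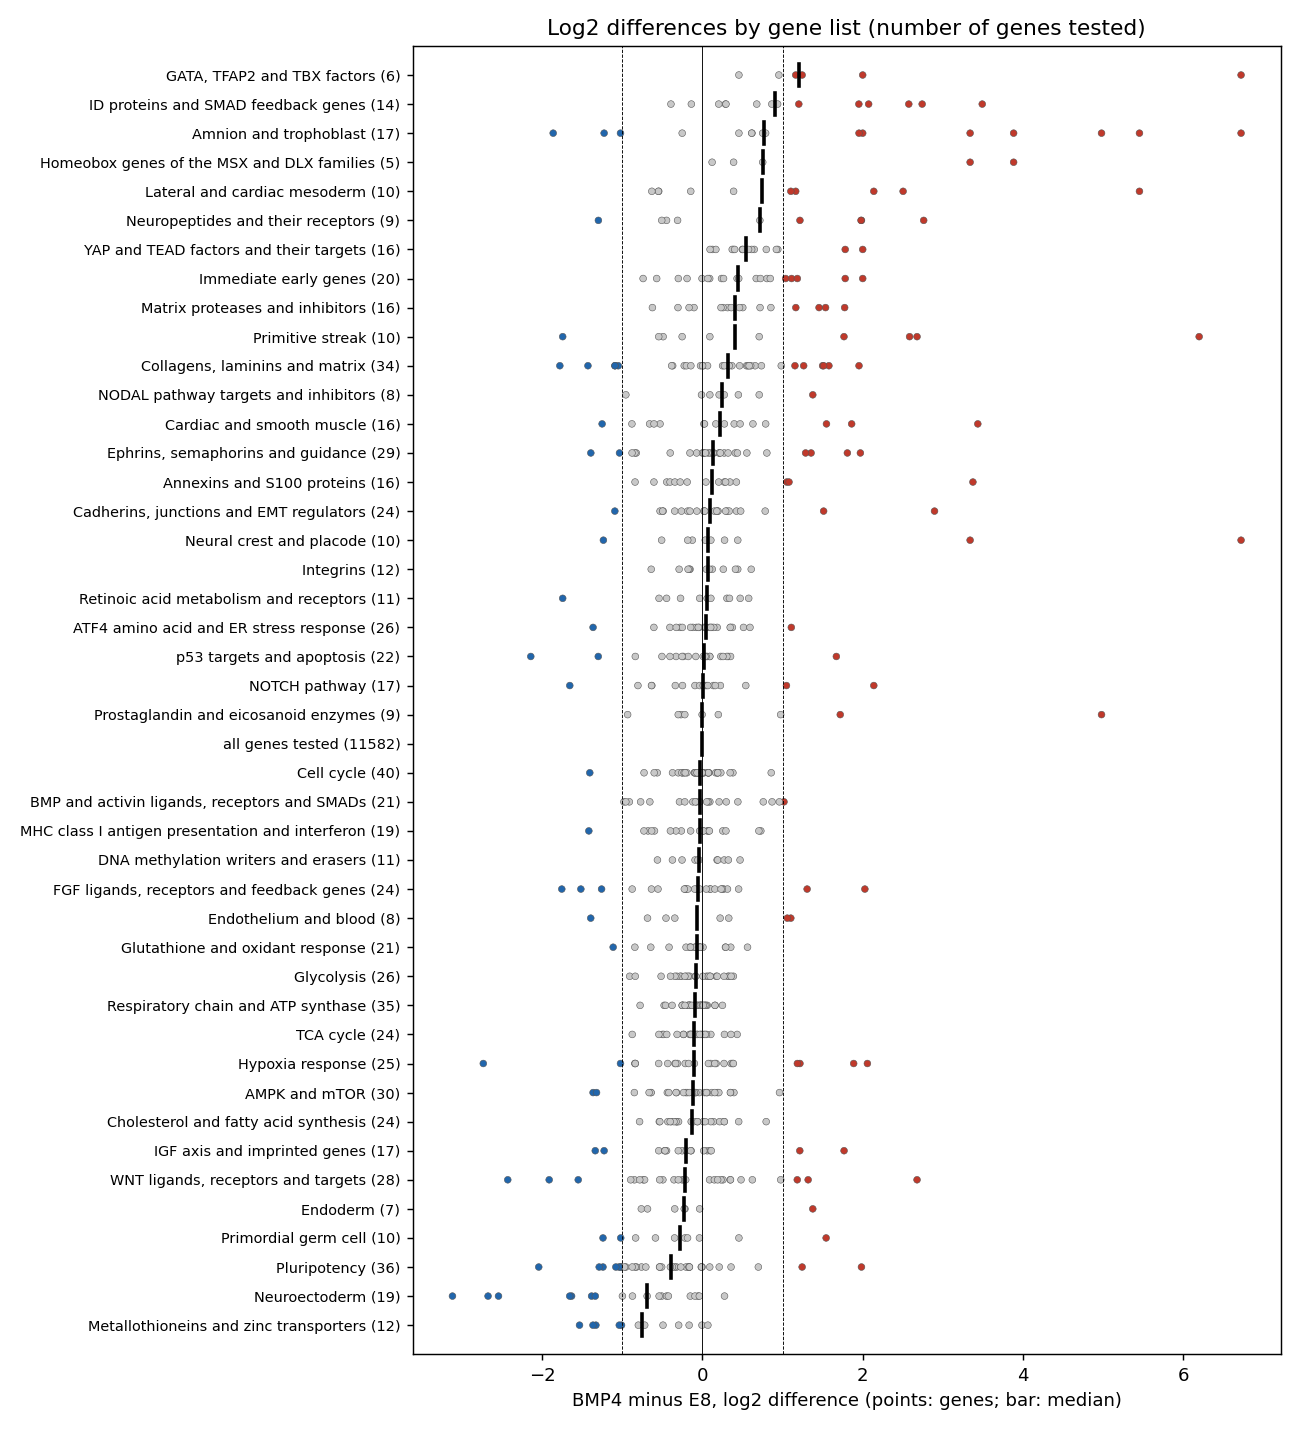
Log2 difference, BMP4 minus E8, of each gene compared in the gene lists with 5 or more such genes (1 point per gene, 1 array a side; red higher, blue lower, grey neither), with the list's median as a black bar and the number of genes in brackets. The row of all genes compared shows its median alone, -0.01. Lists share members, so TFAP2A, at 6.72 from an undetected level in E8, appears in several rows. Each row holds the members detected on either array, and the medians of 1.20 for GATA, TFAP2 and TBX factors and -0.76 for metallothioneins and zinc transporters are 0.15 and -0.30 with no detection filter.

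The cadherins CDH1, CDH2 and CDH3 were neither. CDH1, the epithelial cadherin, was at 12.50 in E8 and 12.92 with BMP4, CDH2, the neural cadherin, at 11.58 and 11.05, and CDH3, the placental cadherin, at 11.61 and 11.42. SNAI1, SNAI2, ZEB1, ZEB2 and TWIST1 were undetected on both arrays. Of 24 genes in the list, CDH6, a cadherin of kidney and neural crest (6.63 to 9.52, 7.45-fold), and FN1 were higher and SNAI3 was lower. SNAI3 was undetected with BMP4, and its level in E8, 5.88, was about that of the dimmest detected probe on the BMP4 array, so the bound is close to no difference. CDH6 alone passed without background correction. EPCAM differed by 0.19 and VIM by -0.07.

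Matrix genes lay on both sides, with 6 of 34 higher, 5 lower and a median of 0.32. FN1, fibronectin, went from 5.58 to 7.09, with a second probe at 2.54. COL11A1 (8.82 to 10.32, second probe 1.64), COL6A2 (5.98 to 7.56), HAPLN1, THBS1 (6.78 to 8.04) and the fibrillin FBN2 (11.46 to 12.62) were the others higher. On the lower side THBS2, a matricellular protein, went from 10.39 to 8.61, 3.44-fold lower. HAPLN3 (7.72 to 6.29), EFEMP1 (10.65 to 9.56), NID2 and COL12A1 were also lower, the last 2 undetected with BMP4 and by at least 1.16-fold and 1.36-fold. Without background correction HAPLN1, COL11A1 and FBN2 were higher and THBS2 lower. No integrin of 12 passed, with ITGB5 at 0.61 and ITGA6 at -0.64. Of 16 matrix proteases and inhibitors, 4 were higher and 0 lower (median 0.41, or 0.26 over 25 with no detection filter). They were the inhibitors SERPINB9 (8.40 to 10.18, 3.42-fold) and SERPINE2 (12.05 to 13.50, 2.74-fold) and the proteases ADAM19 (10.13 to 11.66) and MMP9 (7.07 to 8.23, lost without background correction).

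Several secreted and signalling products were higher. EDN1, the vasoactive peptide endothelin, went from 5.95 to 8.71, 6.78-fold higher, while its receptor EDNRB was lower (9.56 to 8.26). The neuropeptide genes GAL and NTS were higher by 1.98 each, NTS from 11.51 to 13.49, and ADM, adrenomedullin, by 1.22. In this list of neuropeptides and their receptors 4 of 9 were higher and 1 was lower. The median was 0.72, but 0.03 over 23 with no detection filter and -0.03 over 12 at a detection p-value under 0.05. HPGD and SLCO2A1, the prostaglandin carrier that works with it, were the 2 higher of 9 eicosanoid genes, SLCO2A1 going from 7.55 to 9.27, 3.29-fold. The prostaglandin synthases PTGS1 and PTGS2 were undetected on both arrays. ANXA1, a phospholipid-binding protein, went from 6.32 to 9.70, and ANXA3 (9.59 to 10.65) and ANXA8 (at least 1.53-fold) were the other higher genes of 16 annexins and S100 proteins, with 0 lower. Without background correction ANXA1 alone of the 3 was higher.

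Of 29 guidance genes, 4 were higher and 2 lower (median 0.13, or 0.09 over 36 with no detection filter). The ligand EFNA1 was 3.92-fold higher (7.58 to 9.55, second probe 1.74), followed by the receptor EPHB1 (6.68 to 8.49), SLIT2 (7.84 to 9.13) and EPHB3 (at least 1.63-fold). NTN1, netrin, was lower (7.38 to 5.99), as was SEMA4A. EFNA1 and EPHB1 were the calls left without background correction. Of 17 genes of the IGF axis and imprinted genes, IGFBP7 (6.13 to 7.90) and IGFBP6 (undetected, then 6.12, at least 1.52-fold) were higher and IGFBP5 and the non-coding H19 (6.31, then undetected, at least 1.35-fold) lower. None of these 4 passed without background correction.

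Of 16 genes of the YAP and TEAD factors and their targets, 2 were higher, 0 lower and 14 neither, with differences from 0.09 to 2.00 and a median of 0.54. CCN2, a matricellular growth factor, went from 9.87 to 11.87 (second probe 2.17), and CCN1 from 8.67 to 10.45. The targets AMOTL1, F3 and CRIM1 differed by 0.94, 0.92 and 0.80, and the factors YAP1, TEAD2, TEAD3 and TEAD4 by 0.58, 0.17, 0.50 (second probe -0.34) and 0.61. Both CCN genes also count among 20 immediate early genes, of which 5 were higher and 0 lower (median 0.44). The others were BHLHE40 (8.59 to 9.78), JUN (7.24 to 8.36) and IER3 (11.16 to 12.19), all 3 lost without background correction. EGR1 differed by 0.80 and FOS by 0.43.

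Counts in lists of growth and metabolism genes are to be read against the 5.19% of all genes compared that passed the size rule, since lists of this size would hold few or no such genes at that share. Of 40 cell cycle genes only the germ line cyclin CCNA1 passed, at least 2.27-fold lower (not without background correction), and the median was -0.03 (0.03 under 75th percentile scaling). MKI67 differed by -0.26, PCNA by less than 0.01 in size and CDKN1A by 0.23. Among 22 p53 and apoptosis genes 1 was higher and 2 were lower. GADD45B, a stress and SMAD target, was 3.18-fold higher (7.25 to 8.92). GADD45G of the same family was 4.42-fold lower (8.42 to 6.28), and BCL2L11, a promoter of apoptosis, was at least 2.18-fold lower but not without background correction. None of 26 glycolysis, 24 TCA cycle, 35 respiratory chain, 24 cholesterol and fatty acid or 11 DNA methylation genes was higher or lower. In these 5 lists the differences ran from -0.91, for the hexokinase HK2, to 0.80, for the sterol enzyme SC5D. The glycolysis median was -0.09 (0.05 under 75th percentile scaling) and that of the respiratory chain -0.10.

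Of 30 AMPK and mTOR genes, the mTOR inhibitors DDIT4 (10.51 to 9.15, 2.58-fold) and DDIT4L (9.62 to 8.30, 2.50-fold) were lower and 28 were neither. The lower share was 6.67%, against 2.51% of all genes compared. The kinase CAMKK2, upstream of AMPK, differed by 0.96, and MTOR by 0.02. Hypoxia genes had 4 of 25 higher and 2 lower, with a median of -0.10. EGLN3, an oxygen-sensing hydroxylase, was 4.17-fold higher (5.97 to 8.03), and the carbonic anhydrase CA12 at least 2.10-fold. ADM and BHLHE40 were the other 2. STC1, a calcium-regulating hormone, was 6.66-fold lower (10.05 to 7.32), and EPAS1 was also lower. Without background correction EGLN3, ADM and STC1 passed. VEGFA differed by 0.17 and PDK1 by 0.36.

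Metallothioneins are small proteins that hold zinc and copper. With the zinc transporters they made a list of 12, of which 0 were higher and 5 lower (median -0.76, or -0.30 over 17 with no detection filter). MT1G went from 11.34 to 9.80, MT1X from 10.88 to 9.51, MT1H from 9.28 to 7.95 (second probe -1.02) and MT1E from 10.26 to 9.25. MT1F differed by -0.80 and MT2A by -0.49. The genes are near-identical copies, so a probe of one may also read another, and MT1G, MT1H and MT1X are neighbours in the genome. The transporter SLC30A3 was the fifth member, and MT1G and MT1X alone passed without background correction. Elsewhere in stress and immunity, SLC7A5, an amino acid carrier, was higher (10.31 to 11.42), and the proteasome subunit PSMB8 (7.17 to 5.75) and the arrestin ARRDC4 (at least 1.75-fold) were lower, these last 2 not without background correction. B2M differed by 0.73, with a second probe at 1.33, and TXNIP by -0.84.

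Some of the largest differences were outside these lists. Among genes detected on both arrays, AMER2, a membrane regulator of WNT signalling, went from 5.59 to 9.39, with a second probe at 1.88. COCH, a secreted matrix protein of the inner ear, went from 8.49 to 12.02, 11.5-fold higher, with a second probe at 3.03. LYPD1, a GPI-anchored surface protein, went from 5.97 to 9.43 (second probe 1.41), and SAMD11 from 5.79 to 9.31. SAMD11 had a second probe at 0.75 and lies next to the non-coding LINC02593, which was also higher. The kinase PRKD1 (7.22 to 10.31), the cytochrome CYP1B1 (5.71 to 8.67), the synapse organizer CBLN1 (5.82 to 8.65) and the transcription factor EBF2 (7.23 to 9.97, second probe 2.81) completed the upper end.

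Of the genes undetected in E8, KRT16P2, a keratin pseudogene, was at least 15.5-fold higher, with a second probe at 2.24. Its sequence is close to that of KRT16, so what the probe reads is uncertain. The matrix protein SPARCL1 was at least 13.8-fold higher (second probe 3.57), the potassium channel KCNK13 at least 12.9-fold, the aminopeptidase ENPEP at least 11.4-fold and FAM20A, a pseudokinase of the secretory pathway, at least 9.26-fold. All 5 lay at 8.73 or above with BMP4.

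On the lower side, LMO3, a LIM-only cofactor, went from 10.67 to 7.69, with a second probe at -0.88. LHX4, a LIM homeobox factor of the pituitary, went from 8.84 to 5.91. SORBS2, a cytoskeletal adaptor, went from 9.55 to 6.65 (second probe -3.40), and the nucleotide receptor P2RY1 from 10.44 to 8.05 (second probe -3.20). LRAT, which esterifies retinol, was 4.78-fold lower, the neurofilament gene NEFL 3.86-fold, the gluconeogenic enzyme FBP1 3.52-fold and DSEL 3.49-fold. Of the genes undetected with BMP4, GBX2, a homeobox factor of the neural plate and of pluripotent cells, was at 8.46 in E8 and at least 5.98-fold lower. The neuronal genes STMN2 (at least 5.28-fold, second probe -2.67) and CALB2 (at least 4.52-fold) followed. The second probe of CALB2 differed by only -0.53, short of the size rule. Next were STXBP6 (at least 4.34-fold, second probe -1.40), VWC2 (at least 3.65-fold), NLRP7 (at least 3.55-fold), RPRML (at least 3.39-fold) and ST8SIA5 (at least 2.73-fold). VWC2 encodes a secreted BMP antagonist. FBP1, NLRP7, RPRML and ST8SIA5 lost the call without background correction.

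The pair of arrays with pyruvate, BMP4 with pyruvate against pyruvate alone at day 2, shares no array with BMP4 against E8 and was set beside it with the same genes and probes. In that pair 627 of the 11582 genes were higher (5.41%) and 620 lower (5.35%). Of the 310 genes higher with BMP4 alone, 191 were higher there too, 61.6% of the 310 and 30.5% of the 627, and 271 (87.4%) had the same sign. Of the 291 lower genes, 133 were lower there, 45.7% of the 291 and 21.5% of the 620, and 249 (85.6%) had the same sign. The share depended on size. It was 44.8% of the 181 genes higher by 1 to 1.5, 79.2% of the 72 higher by 1.5 to 2 and 93.0% of the 57 higher by 2 or more. On the lower side it was 36.9% of 222, 61.7% of 47, and 22 of the 22 genes lower by 2 or more.

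For a part of the genes described above the values of the 2 pairs are given side by side. The list of ID proteins and SMAD feedback genes had 6 of 14 higher without pyruvate (median 0.90) and 10 of 14 with it (median 1.49), against 2.68% and 5.41% of all genes. ID1 was at 1.95 without pyruvate and 2.27 with it, ID2 at 1.20 and 1.35 and ID3 at 2.58 and 3.24. BAMBI was at 2.74 and 2.32, SMAD6 at 2.07 and 1.77 and SMAD7 at 0.94 and 0.79. PMEPA1 was at 0.87 and 1.38, FSTL1 at 0.68 and 1.38, FST at 0.20 and 1.89 and GREM1, undetected in pyruvate alone, at 0.29 and 1.60, so that these 4 passed the size rule only with pyruvate. Genes undetected on both the E8 and the pyruvate array have no exact difference, and their levels with BMP4 are given instead. ID4 was at 8.74 without pyruvate and 8.73 with it, TFAP2A at 11.39 and 11.19, HAND1 at 9.87 and 9.89, TBXT at 7.46 and 10.78, and MIXL1 at 6.60 and 9.82. Among genes detected on all 4 arrays, ACTC1 differed by 1.86 and 4.42, SOX2 by -0.76 and -2.70, LEFTY1 by 0.45 and -1.73, and SIX6 by -3.12 and -3.15. Among genes chosen after their values were seen, LPL, lipoprotein lipase, was at a level of 7.66 with BMP4 and undetected with BMP4 and pyruvate, and ATP12A, a proton pump, was at levels of 6.94 and 9.83. With pyruvate 191 of the 310 higher and 133 of the 291 lower genes kept their call, and others fell short of the size rule. Of the latter, HEY1 was at 2.14 without pyruvate and 0.64 with it, and NEFL at -1.95 and -0.36. GABRP was at -1.86 and -0.85, SOX3 at -1.38 and -0.61, and IGFBP5 at -1.23 and 0.46. These differences between pairs were not tested.

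**Figure D4:**
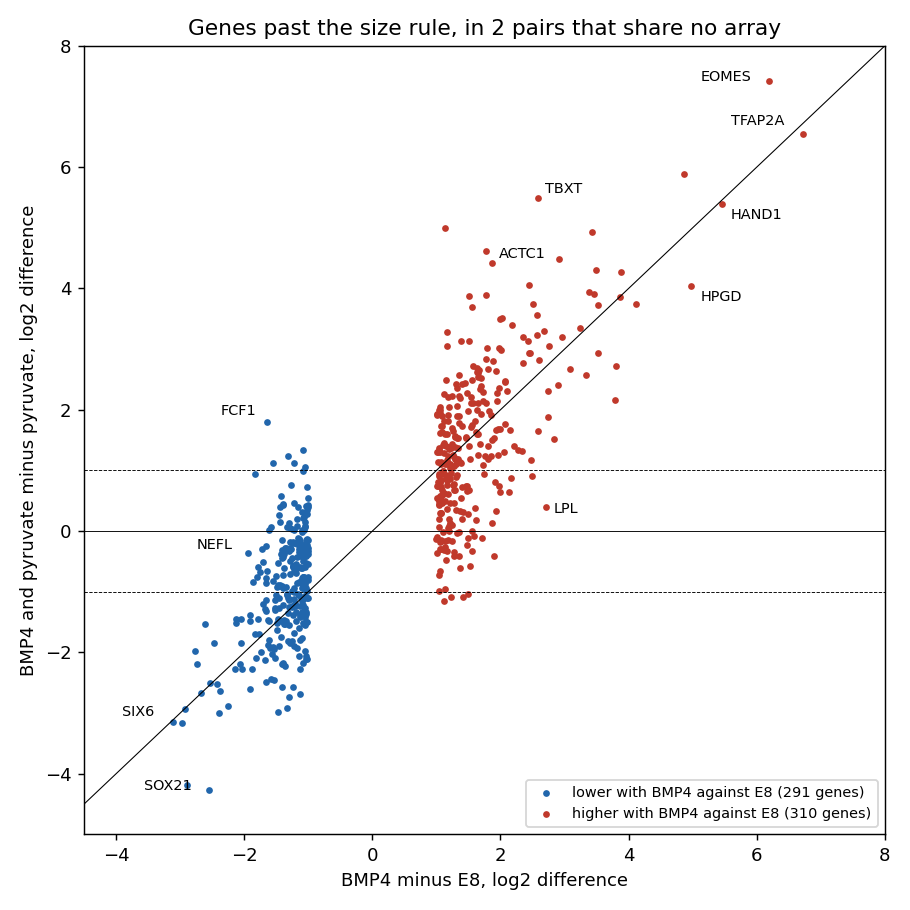
Log2 difference with BMP4 in E8 (horizontal axis) and with BMP4 in 16 mM pyruvate against pyruvate alone (vertical axis) for the 310 higher (red) and 291 lower (blue) genes, 1 array for each of the 4 conditions. The solid diagonal marks equal differences and the dashed lines a log2 difference of 1. Of the 57 genes higher by 2 or more, 53 are also above the upper dashed line, TBXT lies above the diagonal and LPL below it.

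A second detected probe of the same gene checks the probe, not the culture. Among 3065 genes with one, the SD of the difference between the 2 probes was 0.41. Of the 56 higher genes with a second probe, 52 had it on the same side of 0 and 37 past the size rule, and of 60 lower genes 56 and 31 did.

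Promoter windows of RefSeq were matched by Entrez identifier for 9351 of the 11582 genes, 231 of the higher and 213 of the lower ones. GGCGCC, on both strands, occurred in 30.8% of the windows of all genes compared, 27.3% of the higher and 27.2% of the lower. CAGACA, on both strands, occurred in 1124 of the 9351 windows, 30 of the 231 and 22 of the 213. TATAAA, read on the gene's strand, occurred in 3.72%, 7.36% and 8.45%. Of all 27305 RefSeq windows, 5180 held GGCGCC, 4595 held CAGACA (16.8%) and 2104 held TATAAA (7.71%). A CpG content of 0.6 or more, observed over expected, was found in 82.7% of the windows of all genes compared, 65.4% of the higher and 65.3% of the lower. These matches are descriptions of letters in the windows and were given no test.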

How the data were processed

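Total RNA of H1 cells was labelled with biotin and read on Illumina BeadChips, 1 array for each of 5 conditions, per the labels' protocols. The deposited table holds 1 intensity value per probe and array, not normalized, and a detection p-value beside each, per the file headers. The other deposited table is in log2; how the authors made it is not stated, and it served only as an alternative. The labels name no scanner software.

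The deposited intensities were corrected with neqc of limma 3.58.1 in R 4.3.3 (normexp fitted from the detection p-values, offset 16, quantile normalization over the 5 arrays, log2). Quantile normalization hides a difference in total RNA, and the offset makes differences of dim probes smaller. Of 47296 probes, 30105 had 1 gene symbol in the platform annotation, 8 had several and 17183 had none, and 30066 of the named ones matched RefSeq (GRCh38.p14) by Entrez identifier. The files give no genome build. The probe with the highest mean over the 5 arrays stood for its gene. The number of arrays limits the precision.

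The members and the 45 gene lists were chosen with earlier results of these data known. The lists held 1086 genes, 1026 of them with a probe, and the others were not analysed here. Named genes are the 15 with the largest differences in each direction among genes detected on both arrays, the 10 with the largest bounds in each direction, every list member past the size rule with up to 5 brightest members that were not, and a set of lineage markers. Further members without a call and undetected members are named to account for the lists. With 1 array a group no test was possible. The steps were tested on simulated data. Alternatives were no background correction, 75th percentile scaling, offset 50, the 2 arrays normalized alone, the mean of a gene's probes, the deposited log2 values, a detection p-value of 0.05, detection on both arrays, no detection filter and a size threshold of 1.5.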

Additional observations from a re-analysis of the deposited data

Results flagged for a closer look

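In 9 genes the BMP4 difference passed the size rule in both pairs of arrays at day 2, with opposite signs. Each side was 1 array, and the difference between the pairs was not tested. FCF1, a factor of ribosome assembly, was detected on both arrays and at -1.64 in log2 with BMP4 in E8, against 1.80 with BMP4 in pyruvate. NUP43, a nuclear pore protein, was also detected on both arrays, at -1.08 against 1.34. The other 7 were detected on 1 array of the pair in E8. AP5B1 was at -1.31 against 1.24, FBXO16 at -1.05 against 1.05, MIR23B at -1.55 against 1.12 and TMEM191B at -1.23 against 1.12. SPRED3 was at 1.23 against -1.09, VWA3B at 1.42 against -1.09 and ZNF596 at 1.12 against -1.15.

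Probes without a gene symbol were outside the comparison of genes. Of 4276 such probes detected on either array, 141 were higher and 117 lower with BMP4. The largest differences among those detected on both arrays were 3.41 for ILMN_3242105 and 2.92 for ILMN_1791420, and on the lower side -1.84 for ILMN_1777499 and -1.51 for ILMN_2081813. These probes have no name here.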

How the results depend on the processing

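The counts of 310 higher and 291 lower genes depend on the processing, and no called gene changed sign in any of the 10 alternatives. Without background correction 99 were higher and 48 lower, with offset 50 there were 169 and 114, with detection required on both arrays 192 and 131, and at a size threshold of 1.5 there were 129 and 69. The last 2 settings can only lower the counts. Lower genes numbered 180 under 75th percentile scaling and 181 with the deposited log2 values, where 364 and 217 were higher; the cause was not tested. The share of calls on the higher side was 67.3% without background correction, 66.9% with scaling, 65.2% at 1.5, 59.7% with offset 50 and 59.4% on both arrays, against 51.6%. The 4 other alternatives gave 304 to 336 higher and 282 to 292 lower genes.

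Of 147 named genes past the size rule, 85 passed in every alternative that gave a value, the stricter size threshold aside, and 62 lost the call without background correction. Other settings than that one and offset 50 ended the call of 20, which were GDF15, CER1, TBX3, EPAS1, KLF4, LCK, HESX1, SOX18, ACTA2, SNAI3, COL12A1, NID2, ANXA8, SEMA4A, H19, IGFBP6, BCL2L11, MT1E, SLC30A3 and ARRDC4. The medians of the 45 lists moved by less than the SD between 2 probes in 390 cases and by more in 15. Of the 22 lists with a median of at least 0.2 in size, 14 moved by over 1.5 times with no detection filter and 13 without background correction, all of them towards or past 0, and 0 to 5 in each other alternative that gave medians.

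No paired analysis was possible because each condition has 1 array, and there was no replicate to leave out. Genes undetected on 1 of the 2 arrays are known only as bounds, under the main processing. Folds of genes just above the lowest detected value also depend on the processing. WNT3, at 5.64 in E8 where the lowest detected value was 5.51, differed by 1.32 to 2.72 over the alternatives. PDGFRB, at 5.53 in E8, differed by 1.16 to 2.57.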
